A study of Homo sapiens with 12 samples.

Results

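The transcripts of 10 B-lineage transcription factor genes were followed in the human leukemia lines REH and NALM-6. The genes were the rows of the authors' expression table with the symbols PAX5, EBF1, TCF3, IKZF1, IKZF3, LEF1, SOX4, BACH2, FOXO1 and PRDM1, which makes 10 of the 60617 genes listed. RNA came from REH in human cerebrospinal fluid (CSF), REH in RPMI medium with 10% fetal calf serum (RPMI), NALM-6 in CSF and NALM-6 in RPMI, after 48 h in each, and each group held 3 libraries. Libraries are named by line, medium and replicate number (REH CSF 3). Both lines are established cultures labelled as B-cell lymphoblastic leukemia, so each represents a single leukemia. The labels name no drug, although the title of the series concerns methotrexate, and they give neither the source of the CSF nor whether it was pooled. Nor do they say whether replicates were separate cultures, so the p-values take in no more than the spread among these libraries, part or all of which may be technical.

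These factors act in sequence as a lymphoid progenitor becomes a B cell. The E protein encoded by TCF3 and the factor EBF1 open the early B-cell programme, PAX5 commits the cell to the B lineage and holds other fates down, and the zinc finger proteins IKZF1 and IKZF3 regulate the passage through the pre-B stage. FOXO1 drives the genes of antigen receptor recombination, while LEF1 and SOX4, both DNA-bending factors of the high mobility group type, serve survival and proliferation of early B cells. BACH2 and PRDM1 oppose each other: BACH2 represses PRDM1, and PRDM1 (Blimp-1) shuts the B-cell programme down, PAX5 included, when a B cell becomes a plasma cell. PAX5, EBF1, IKZF1 and LEF1 are recurrent targets of mutation or deletion in precursor B-cell leukemia.

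Values are CPM (a gene's reads scaled to a library total of 1000000), given per library in the order of the replicate numbers or as mean ± SD with n = 3 per group. Differences are of log2(CPM + 1) with their SE, and called means that limma's p, after Benjamini-Hochberg adjustment over all 14364 genes that reached 1 CPM in 3 or more libraries, was under 0.05. All 10 genes passed that filter, but IKZF3 passed it only through NALM-6 and PRDM1 only through the CSF libraries, so a difference between those groups was a condition of being tested. Libraries held 23412869 to 37146556 reads. As bulk RNA, the samples do not separate fewer cells of a kind from less RNA per cell.

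REH CSF 3 and NALM-6 RPMI 1 stood apart from their replicates. The share of reads on ribosomal protein genes was 9.40% in REH CSF 3, against 5.21% and 5.69% in the other REH CSF libraries, and 19.6% in NALM-6 RPMI 1, against 7.67% and 6.96% in the other NALM-6 RPMI libraries. The mean exonic length of the transcripts read was 5.34 kb and 4.62 kb in these libraries and 5.98 to 6.34 kb in the other 10. Results are therefore given with and without them. Both were picked for how they deviated in these data, so p-values from fits without them depend on that choice. Of 8 B-lineage marker genes, 6 in REH and 7 or 8 in NALM-6 reached a mean of 1 CPM, with summed levels of 1244 to 2760 CPM per library. VPREB1, the surrogate light chain gene, was near 0 in REH, with 4 reads over the CSF libraries and 3 over the RPMI libraries. The T-cell marker CD3D, the erythroid marker HBB and the choroid plexus marker TTR had no read in any library, but other T-cell, myeloid and neural markers were present. Of 6 T-cell markers, 2 reached a mean of 1 CPM in each group, with summed levels of 9.76 to 14.2 CPM per library in REH and 19.4 to 22.8 CPM in NALM-6. GATA3 averaged 19.7 CPM in NALM-6 in CSF and 20.01 CPM in NALM-6 in RPMI, and BCL11B 7.92 and 7.94 CPM in REH in CSF and RPMI. The 6 myeloid markers summed to 94.4 to 124 CPM in REH in CSF and 61.2 to 69.3 CPM in REH in RPMI, most of it MPO (106 and 65.3 CPM), and to 8.35 to 9.10 CPM in NALM-6 in CSF and 3.07 to 3.91 CPM in NALM-6 in RPMI. MAP2 was the 1 of 5 neural or choroid plexus markers above 1 CPM, at 13.2 and 6.28 CPM in NALM-6 in CSF and RPMI. The part of these markers in the results was not tested.

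All 10 genes were below the mean of their replicates in both libraries that stood apart. In NALM-6 RPMI 1, BACH2 stood at 15.6%, PAX5 at 21.8%, PRDM1 at 29.4% and IKZF1 at 30.1% of the mean of the other NALM-6 RPMI libraries, while TCF3 and SOX4 kept 62.2% and 64.9%. In REH CSF 3, PAX5 stood at 38.8% and BACH2 at 42.1% of the mean of REH CSF 1 and 2, while TCF3 kept 90.6%. Long transcripts were low in general in these libraries: tested genes over 8 kb had a median of 63.2% in REH CSF 3 and 36.8% in NALM-6 RPMI 1, and those under 2 kb had 135.5% and 145.6%. The 10 genes are 5.36 kb (LEF1) to 10.9 kb (IKZF1) long over their exons. PAX5, EBF1, IKZF1, LEF1, BACH2, FOXO1 and PRDM1 lay below the median of their length range in both libraries, and TCF3 lay above it in both. SOX4 lay below that median in REH CSF 3 (76.3% against 91.9%) and at it in NALM-6 RPMI 1 (64.9% against 64.7%). IKZF3 lay above the median of its length range in NALM-6 RPMI 1 (45.1% against 36.8%), and in REH CSF 3 it had 2 reads, too few to place. PRDM1 in NALM-6 RPMI 1 rested on 6 reads. The part of these libraries in each result was not tested beyond leaving them out and correcting for length.

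**Figure D1:**
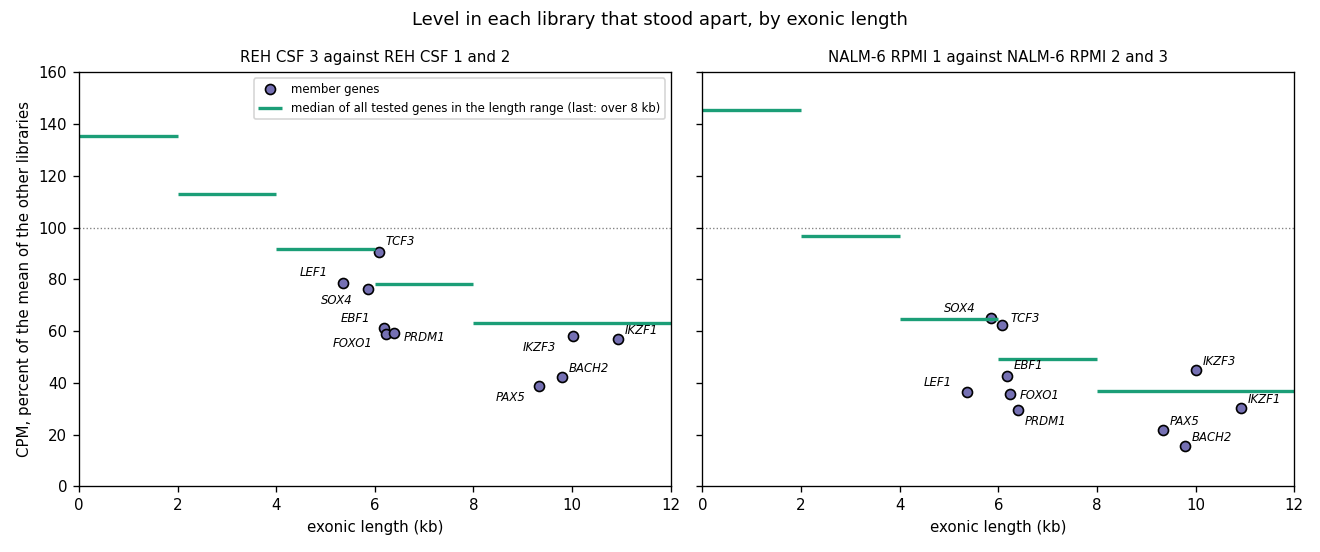
CPM in REH CSF 3 (left) and in NALM-6 RPMI 1 (right) as a percent of the mean of the other libraries of the group, against exonic length in kb. Points are the 10 genes and green lines the median of all tested genes in each length range; every point lies below 100%, with PAX5 and BACH2 among the lowest in both panels.

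PRDM1 had the largest difference between media of the 10 genes, and its level was higher in CSF in both lines. PRDM1 (ENSG00000057657, chromosome 6, 106086320 to 106109939, plus strand, GRCh38) had 5.28, 5.34 and 3.14 CPM in REH in CSF, against 0.0698, 0.141 and 0.0661 CPM in REH in RPMI. In NALM-6 it had 3.01, 3.35 and 3.26 CPM in CSF, against 0.206, 0.677 and 0.727 CPM in RPMI. In both lines all CSF libraries lay above all RPMI libraries, and REH in RPMI was at the edge of detection, since 3 reads correspond to 0.0808 to 0.128 CPM.

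The gene annotation (GENCODE 29) shows no exonic overlap of PRDM1, TCF3, EBF1 or IKZF3 with another gene. PAX5, IKZF1, LEF1, SOX4 and BACH2 share some exonic bases with a gene on the opposite strand, and FOXO1 with LINC00598 on its own strand. No source used here states the strand setting of the counting, so reads in those stretches cannot be told apart.

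The reads behind PRDM1 numbered 351 over the REH CSF libraries, against 8 over the REH RPMI libraries, a ratio per total reads of 49.2 (95% exact interval 24.7 to 115). In NALM-6 there were 278 reads in CSF, against 55 in RPMI, a ratio of 5.76 (4.30 to 7.83). The intervals describe counting error alone, because reads were not tied to single molecules. On the log2(CPM + 1) scale, which understates the change of a gene this low, PRDM1 rose by 2.33 in REH (SE 0.18, adjusted p = 8.7e-06) and by 1.47 in NALM-6 (SE 0.18, adjusted p = 0.00047). Both calls held in all 26 alternative analyses that gave a value, with the largest adjusted p at 0.00102 in REH and 0.0126 in NALM-6.

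BACH2, the repressor of PRDM1, had another pattern. BACH2 (ENSG00000112182, chromosome 6, 89926529 to 90296908, minus strand) had 87.7, 85.4 and 36.5 CPM in REH in CSF, against 138, 154 and 152 CPM in REH in RPMI. NALM-6 gave BACH2 values of 279, 316 and 300 CPM in CSF, against 49.0, 295 and 334 CPM in RPMI. All REH CSF libraries lay below all REH RPMI libraries, whereas the NALM-6 groups overlapped, with RPMI 1 far below the rest. The difference was -1.18 in REH (SE 0.61, adjusted p = 0.284) and 0.81 in NALM-6 (SE 0.61, adjusted p = 0.348), neither called. Without REH CSF 3 and NALM-6 RPMI 1, BACH2 fell by 0.77 in REH (SE 0.07, adjusted p = 5.3e-06) and differed by -0.07 in NALM-6 (adjusted p = 0.461).

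Within single libraries, PRDM1 reads amounted to 6.02%, 6.25% and 8.63% of BACH2 reads in REH in CSF, against 0.0504%, 0.0916% and 0.0434% in REH in RPMI. In NALM-6 the share was 1.08%, 1.06% and 1.09% in CSF, against 0.421%, 0.230% and 0.218% in RPMI. The CSF libraries of each line lay above its RPMI libraries, and the highest RPMI share was that of NALM-6 RPMI 1, where BACH2 was low. PRDM1 remained the less abundant of the pair in every library.

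**Figure D2:**
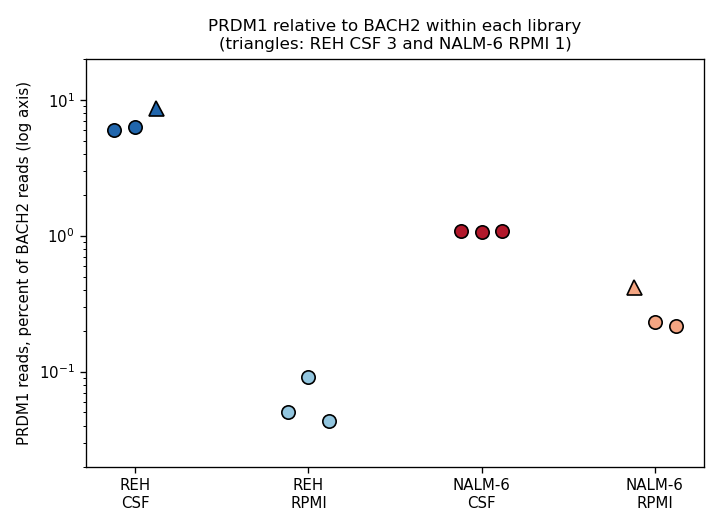
PRDM1 reads as a percent of BACH2 reads in each library (log axis), for REH and NALM-6 in CSF and RPMI; each symbol is 1 library and triangles mark REH CSF 3 and NALM-6 RPMI 1. REH in CSF lies between 6.02% and 8.63%, REH in RPMI below 0.1%, and NALM-6 in CSF near 1.08%, above its RPMI libraries.

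PRDM1 has 2 start sites in the RefSeq promoter table (GRCh38.p14), and both windows, from 250 bases before to 50 bases after the start, are shown because PRDM1 is the gene that differed most between media. The first lies at chr6:106086086-106086385 and the second at chr6:106098691-106098990, both on the plus strand. Capitals mark matches, on either strand, to GGGAA, the core bound by IKZF1, in the first window, and to TGANTCA, the AP-1 site that also sits inside the BACH2 element, in the second.

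PRDM1 first start: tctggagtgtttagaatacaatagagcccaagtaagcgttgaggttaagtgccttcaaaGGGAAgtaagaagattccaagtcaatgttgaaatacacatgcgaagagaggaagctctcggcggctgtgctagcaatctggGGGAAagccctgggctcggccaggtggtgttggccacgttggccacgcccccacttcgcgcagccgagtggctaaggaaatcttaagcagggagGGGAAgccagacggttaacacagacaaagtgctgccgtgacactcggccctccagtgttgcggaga

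PRDM1 second start: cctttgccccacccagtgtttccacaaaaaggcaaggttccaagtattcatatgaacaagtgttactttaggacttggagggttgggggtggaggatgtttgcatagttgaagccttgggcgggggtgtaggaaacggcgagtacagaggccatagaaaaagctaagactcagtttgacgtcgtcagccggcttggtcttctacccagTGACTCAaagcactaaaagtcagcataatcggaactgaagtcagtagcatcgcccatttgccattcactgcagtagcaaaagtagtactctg

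The first window holds GGGAA at positions -191, -110 and -16 from the start, and the second holds the AP-1 match at -42. E-boxes (CANNTG, the site of TCF3) lie at -156 and -90 in the first window and at -202, -194 and 13 in the second. Of the 35116 promoters in the table, 65.0% hold GGGAA, 68.7% an E-box and 7.71% TGANTCA, so the AP-1 match is the least common of these. None of the other windows of the 9 members found in the table holds TGANTCA, and the windows of TCF3, BACH2 and FOXO1 hold no match to any of the 6 motifs searched. A match describes letters in the window, not binding.

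For TCF3, EBF1 and PAX5, the early B-cell regulators, every REH CSF library lay below every REH RPMI library, and with all libraries TCF3 alone of the 3 was called. TCF3 (ENSG00000071564, chromosome 19, 1609290 to 1652605, minus strand) had 373, 454 and 375 CPM in REH in CSF, against 689, 703 and 634 CPM in REH in RPMI. For TCF3 in NALM-6 the libraries had 428, 391 and 397 CPM in CSF, against 382, 609 and 618 CPM in RPMI. The REH groups did not overlap, and in NALM-6 the CSF libraries lay below RPMI 2 and 3 but above RPMI 1. TCF3 fell by 0.76 in REH (SE 0.18, adjusted p = 0.0172). That call was lost with the replicate number as a block (adjusted p = 0.0691) and without REH RPMI 1 (log2 -0.74, 0.0631), REH RPMI 2 (-0.73, 0.0694), REH CSF 1 (-0.71, 0.0551) or REH CSF 3 (-0.71, 0.0530), but held without both libraries that stood apart (-0.71, 2.0e-05).

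In NALM-6 the TCF3 difference was -0.37 (SE 0.18, adjusted p = 0.188), not called with all libraries. Without NALM-6 RPMI 1 it was -0.60 (adjusted p = 0.00304). After median-of-ratios scaling it was -0.64 (adjusted p = 0.0060), and with edgeR on whole reads -0.65 (0.00885). The difference between the lines in the TCF3 response was -0.39 (SE 0.26, adjusted p = 0.318) and missed the threshold under all 26 alternatives, with the sign of the main result in each.

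EBF1 (ENSG00000164330, chromosome 5, 158695916 to 159099761, minus strand) had 176, 173 and 107 CPM in REH in CSF, against 247, 268 and 267 CPM in REH in RPMI. EBF1 in NALM-6 stood at 191, 195 and 200 CPM in CSF, against 96.2, 215 and 236 CPM in RPMI. The REH groups did not overlap, whereas in NALM-6 the CSF libraries fell between RPMI 1 and the other RPMI libraries. The EBF1 difference was -0.81 in REH (SE 0.31, adjusted p = 0.122) and 0.20 in NALM-6 (SE 0.31, adjusted p = 0.649). In REH it was called after median-of-ratios scaling (-0.90, adjusted p = 0.0197) and with edgeR (-0.85, adjusted p = 0.0320).

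PAX5 (ENSG00000196092, chromosome 9, 36833275 to 37034185, minus strand) had 442, 463 and 176 CPM in REH in CSF, against 634, 713 and 716 CPM in REH in RPMI. The NALM-6 libraries held PAX5 at 836, 860 and 853 CPM in CSF, against 212, 929 and 1013 CPM in RPMI. Again the REH groups did not overlap, and in NALM-6 RPMI 1 alone lay below the CSF libraries. The PAX5 difference was -1.05 in REH (SE 0.54, adjusted p = 0.276) and 0.54 in NALM-6 (SE 0.54, adjusted p = 0.478).

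The wide SE of these genes came with the libraries that stood apart. Without both, PAX5 fell by 0.60 (SE 0.06, adjusted p = 1.1e-05) and EBF1 by 0.57 (SE 0.06, adjusted p = 8.1e-06) in REH. In NALM-6 the same fit gave -0.19 for PAX5 (adjusted p = 0.0278) and -0.20 for EBF1 (adjusted p = 0.0137), opposite in sign to the values with all libraries. NALM-6 RPMI 1 also set the pooled spread of the REH comparison: leaving out that library alone gave PAX5 an adjusted p of 0.0199, EBF1 0.00372, IKZF1 0.0122, LEF1 8.6e-05 and BACH2 0.00736 in REH, at unchanged differences.

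EBF1 reads as a share of PAX5 reads separated the lines more than the media. The share was 39.8%, 37.4% and 60.7% in REH in CSF, against 39.0%, 37.5% and 37.2% in REH in RPMI. In NALM-6 it was 22.9%, 22.7% and 23.5% in CSF, against 45.4%, 23.2% and 23.3% in RPMI. Only REH CSF 3 and NALM-6 RPMI 1 left the narrow range of their line.

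IKZF1 and IKZF3, zinc finger proteins of the Ikaros family, divided the lines. IKZF3 (Aiolos, ENSG00000161405, chromosome 17, 39757715 to 39864188, minus strand) had 0.196, 0.0427 and 0.0691 CPM in REH in CSF and 0.0698, 0.106 and 0 CPM in REH in RPMI, that is 8 and 5 reads over the libraries of each group. In NALM-6 it had 10.2, 12.3 and 12.9 CPM in CSF, against 3.65, 7.48 and 8.70 CPM in RPMI. REH was thus at the edge of detection in both media, far below every NALM-6 library. On the log2(CPM + 1) scale IKZF3 was lower in REH than in NALM-6, with a difference of -3.53 in CSF (SE 0.23, adjusted p = 2.5e-07) and -2.78 in RPMI (SE 0.23, adjusted p = 2.2e-06). By pooled reads, NALM-6 exceeded REH 115-fold in CSF (95% exact interval 58.1 to 267) and 119-fold in RPMI (50.7 to 367).

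In NALM-6, where it was measurable, IKZF3 rose by 0.81 in CSF (SE 0.23, adjusted p = 0.0446), with no overlap between media. This call was weak. It was lost when any NALM-6 CSF library was left out (log2 0.75 to 0.90, adjusted p = 0.0798 to 0.148) and without any single REH library, which changes only the pooled spread (0.81, 0.0574 to 0.0721). It was also lost with a pseudocount of 0.25, no filter, quantile normalization (0.36, 0.133), a fit of NALM-6 alone (0.267), edgeR (0.61, 0.229), DESeq2, edgeR without both libraries that stood apart (0.46, 0.0512) and the length correction (0.25, 0.277). It held without NALM-6 RPMI 1 (0.49, adjusted p = 0.0205) and with the replicate block (0.81, 0.0425). In REH the difference was 0.06 (adjusted p = 0.925), from 8 reads in CSF and 5 in RPMI (ratio 1.79, 95% exact interval 0.517 to 6.97).

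IKZF1 (Ikaros, ENSG00000185811, chromosome 7, 50304068 to 50405101, plus strand) was expressed in both lines. It had 291, 274 and 160 CPM in REH in CSF, against 371, 398 and 400 CPM in REH in RPMI. NALM-6 gave IKZF1 values of 168, 180 and 180 CPM in CSF, against 47.8, 149 and 168 CPM in RPMI. All REH RPMI libraries lay above all NALM-6 RPMI libraries, and in CSF REH CSF 1 and 2 lay above the NALM-6 libraries and REH CSF 3 below them. IKZF1 was higher in REH than in NALM-6 by 1.86 in RPMI (SE 0.40, adjusted p = 0.0036), and by 1.29 without NALM-6 RPMI 1 (adjusted p = 0.000382). This call held in all 27 alternatives.

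In CSF the IKZF1 difference between lines was 0.41 (SE 0.40, adjusted p = 0.485), and it was called without both libraries that stood apart (0.68, adjusted p = 1.2e-06). Between media it was -0.73 in REH (SE 0.40, adjusted p = 0.315) and 0.72 in NALM-6 (SE 0.40, adjusted p = 0.231). IKZF3 reads came to 0.0156% to 0.0673% of IKZF1 reads in REH in CSF and 0% to 0.0265% in REH in RPMI, compared with 6.10% to 7.16% in NALM-6 in CSF and 5.01% to 7.62% in NALM-6 in RPMI.

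The first of the IKZF1 start sites in the RefSeq table is shown because IKZF1 differed between the lines in RPMI in every alternative. It lies at chr7:50304466-50304765 on the plus strand of GRCh38.p14, and capitals mark CCCNNGGG, the palindrome bound by EBF1, and GGGAA, the core bound by Ikaros proteins themselves.

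IKZF1 first start: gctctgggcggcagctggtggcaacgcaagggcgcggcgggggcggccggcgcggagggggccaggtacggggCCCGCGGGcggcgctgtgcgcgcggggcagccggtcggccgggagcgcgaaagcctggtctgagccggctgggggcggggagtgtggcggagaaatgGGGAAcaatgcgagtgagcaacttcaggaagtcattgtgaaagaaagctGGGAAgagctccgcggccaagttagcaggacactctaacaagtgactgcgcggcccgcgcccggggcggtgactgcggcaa

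The EBF1 match is at -177 from the start and the GGGAA matches at -80 and -31. CCCNNGGG occurred in 19.1% of all promoters in the table, and SOX4 was the only other member with a window that held it, at -103.

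FOXO1 (ENSG00000150907, chromosome 13, 40469953 to 40666597, minus strand), which activates RAG gene expression in early B cells, had 196, 171 and 108 CPM in REH in CSF, against 189, 204 and 209 CPM in REH in RPMI. For FOXO1 in NALM-6 the libraries had 122, 132 and 130 CPM in CSF, against 41.5, 112 and 120 CPM in RPMI. The REH groups overlapped through REH CSF 1, and in RPMI every REH library lay above every NALM-6 library. FOXO1 was higher in REH than in NALM-6 by 1.27 in RPMI (SE 0.36, adjusted p = 0.0153). Without NALM-6 RPMI 1 the difference was 0.79 (adjusted p = 0.00716), and only a fit of the RPMI libraries alone ended the call (1.27, adjusted p = 0.0772).

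The FOXO1 difference between media was -0.38 in REH (SE 0.36, adjusted p = 0.604) and 0.63 in NALM-6 (SE 0.36, adjusted p = 0.232). Without both libraries that stood apart these values were -0.13 (adjusted p = 0.157) and 0.14 (adjusted p = 0.129). In that fit FOXO1 was higher in REH than in NALM-6 in CSF too (0.51, adjusted p = 3.9e-05), against 0.26 (adjusted p = 0.624) with all libraries.

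LEF1 (ENSG00000138795, chromosome 4, 108047545 to 108168956, minus strand), the nuclear partner of beta-catenin in Wnt signalling, had 432, 385 and 322 CPM in REH in CSF, against 688, 700 and 706 CPM in REH in RPMI. LEF1 in NALM-6 stood at 429, 438 and 438 CPM in CSF, against 191, 527 and 524 CPM in RPMI. REH in RPMI was the highest group with a narrow spread, and in NALM-6 the CSF values fell between RPMI 1 and the other RPMI libraries. The LEF1 difference between media was -0.89 in REH (SE 0.32, adjusted p = 0.105) and 0.21 in NALM-6 (SE 0.32, adjusted p = 0.650).

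LEF1 in REH was called in a fit of the REH libraries alone (adjusted p = 0.0074), after median-of-ratios scaling (-0.98, 0.0140), with edgeR (-0.95, 0.0209) and without both libraries that stood apart (-0.77, 3.4e-07). In that last fit LEF1 was lower in CSF in NALM-6 as well (-0.27, adjusted p = 0.00158). Between lines in RPMI, LEF1 was higher in REH by 0.89 (SE 0.32, adjusted p = 0.0493), a call lost when any NALM-6 CSF library was left out (0.89, adjusted p = 0.0692 to 0.0693), any single REH RPMI library (0.89 to 0.90, 0.104 to 0.114), any single REH CSF library (0.89, 0.0581 to 0.0683), in edgeR (0.59, 0.0561) and with the replicate block (0.0687). Without NALM-6 RPMI 1 it was 0.41 (adjusted p = 0.0109).

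SOX4 (ENSG00000124766, chromosome 6, 21592768 to 21598619, plus strand), a survival factor of early B cells, varied least of the 10 genes, with a span of 0.51 between its group means on the log2 scale. It had 196, 218 and 158 CPM in REH in CSF, against 215, 212 and 201 CPM in REH in RPMI. The NALM-6 libraries held SOX4 at 204, 199 and 197 CPM in CSF, against 110, 158 and 180 CPM in RPMI. The REH groups overlapped, while all NALM-6 CSF libraries lay above all NALM-6 RPMI libraries.

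The SOX4 difference between media was -0.15 in REH (SE 0.18, adjusted p = 0.723) and 0.45 in NALM-6 (SE 0.18, adjusted p = 0.137). In RPMI, SOX4 was higher in REH than in NALM-6 by 0.51 (SE 0.18, adjusted p = 0.0482). That call was lost without NALM-6 RPMI 1 (0.31, adjusted p = 0.0663), NALM-6 RPMI 2 (0.57, 0.0563), each of the NALM-6 CSF libraries (0.51, 0.0701 to 0.0711), any single REH RPMI library (0.49 to 0.54, 0.0942 to 0.121) or REH CSF 1 or 2 (0.51, 0.0617 and 0.0523). It was also lost with the replicate block (0.51, 0.0802), after median-of-ratios scaling (0.26, 0.119) or quantile normalization (0.34, 0.0588), in edgeR (0.27, 0.113) and DESeq2 (0.24, 0.0657), with the length correction (0.15, 0.245), in a fit of RPMI alone (0.139), with no filter (0.0814) and, by a small margin, with robust variance (0.0507) or a filter of 5 CPM. In the fit without both libraries that stood apart it was 0.31 (adjusted p = 0.00139).

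**Figure D3:**
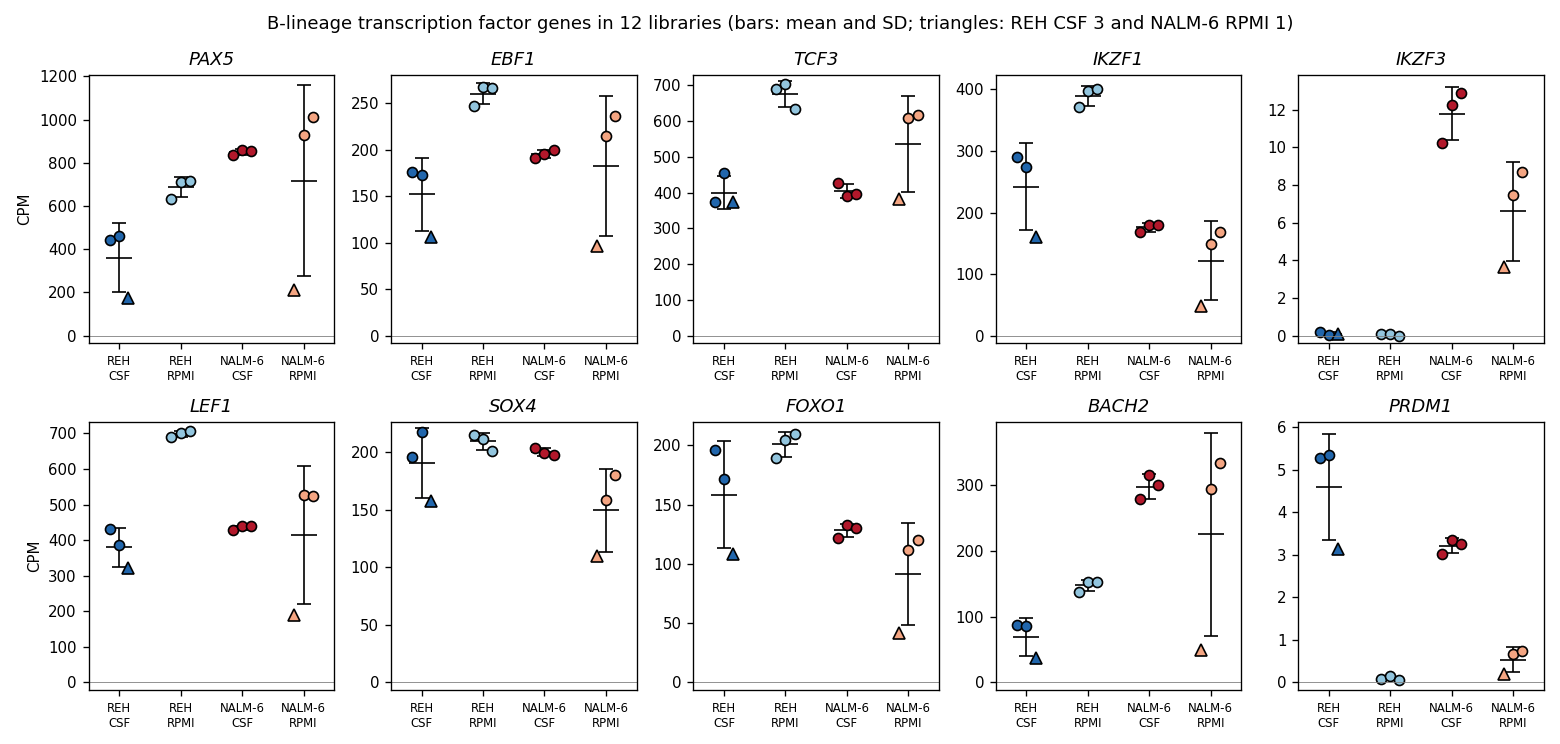
CPM of the 10 genes in each of the 12 libraries, grouped by line and medium; bars give the mean and SD of 3 libraries and triangles mark REH CSF 3 and NALM-6 RPMI 1. PRDM1 is higher in CSF in both lines, IKZF3 is near 0 in REH, and PAX5, EBF1, TCF3, IKZF1, LEF1 and BACH2 in REH are lower in CSF than in RPMI in every library.

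Across the 10 genes in REH, CSF against RPMI gave 2 calls, PRDM1 higher and TCF3 lower, where 14.9% of all tested genes were called (13.2% higher and 1.71% lower). The libraries of the media did not overlap for 7 of the 10, 1 higher and 6 lower in CSF, against 43.1% of all tested genes (28.8% higher and 14.3% lower). The median difference of the 10 was -0.75, with 0.07 over all tested genes. Without the libraries that stood apart, 7 were called, PRDM1 higher and PAX5, EBF1, TCF3, IKZF1, LEF1 and BACH2 lower, where 45.9% of all tested genes were called (32.1% higher and 13.7% lower).

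In NALM-6, CSF against RPMI also gave 2 calls, PRDM1 and IKZF3, both higher, where 12.1% of all tested genes were called (10.9% higher). The media did not overlap for 4 of the 10, all higher in CSF, against 46.6% of all tested genes (35.8% higher). The median of the 10 was 0.58, with 0.25 over all tested genes. After median-of-ratios scaling these medians were 0.32 and 0.05, and after quantile normalization 0.37 and -0.03. Without both libraries that stood apart they were 0.035 and 0.090, so the 10 then lay no higher than all tested genes. With median-of-ratios scaling PRDM1 differed by 1.38, IKZF3 by 0.58 and TCF3 by -0.64, while EBF1 and LEF1 changed sign (-0.07 and -0.06). Without both libraries that stood apart, 7 of the 10 were called, with PRDM1 (1.31), IKZF3 (0.49) and SOX4 (0.24) higher and TCF3 (-0.60), LEF1 (-0.27), PAX5 (-0.19) and EBF1 (-0.20) lower, where 40.8% of all tested genes were called (29.8% higher and 11% lower).

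**Figure D4:**
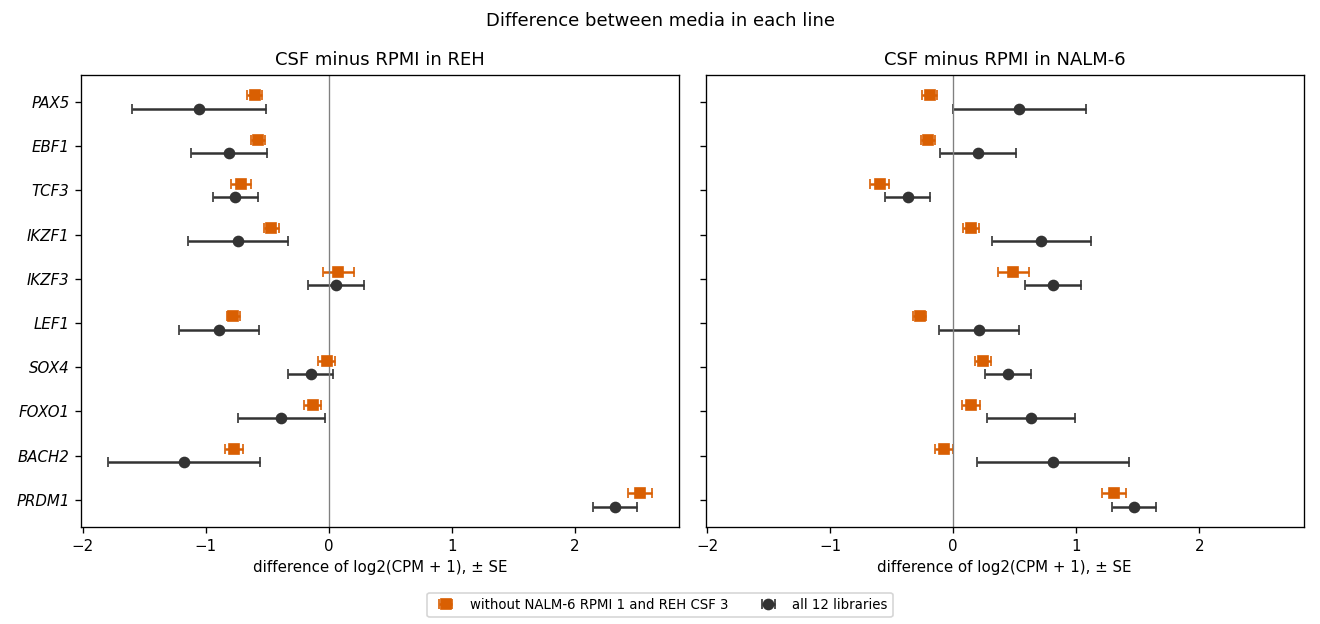
Difference of log2(CPM + 1) between CSF and RPMI (± SE) for the 10 genes in REH (left) and NALM-6 (right), with all 12 libraries (black circles) and without REH CSF 3 and NALM-6 RPMI 1 (orange squares). PRDM1 lies to the right of 0 in both lines and both fits; in NALM-6, PAX5, EBF1, LEF1 and BACH2 cross 0 when the libraries that stood apart are left out.

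None of the 10 genes passed the test of whether the response to CSF differed between the lines, where 4.23% of all tested genes were called (3.03% higher and 1.2% lower in REH). At an unadjusted p under 0.05 there were 7 of the 10, where 2519 of the 14364 tested genes passed, and edgeR and DESeq2 on whole reads each called 1, PRDM1. The PRDM1 response was larger in REH by 0.86 (SE 0.25, adjusted p = 0.107), by 1.02 without NALM-6 RPMI 1 (adjusted p = 0.0213), by 1.06 without REH CSF 3 (0.0135) and by 1.23 without both (0.00011). In edgeR, which has no pseudocount of 1, it was 3.17 (adjusted p = 0.0254). Differences for the other 9 ran from -1.99 (BACH2) to -0.39 (TCF3).

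Without both libraries that stood apart, the response differed between the lines for 6 of the 10, where 15.3% of all tested genes were called (7.96% higher and 7.34% lower in REH). PRDM1 was 1.23 higher in REH, and BACH2 (-0.69), IKZF1 (-0.61), LEF1 (-0.50), PAX5 (-0.41) and EBF1 (-0.37) were lower, with adjusted p-values from 0.00011 to 0.00916. Leaving out NALM-6 RPMI 1 alone was enough for LEF1 (-0.62, adjusted p = 0.0337).

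Between the lines in RPMI, 5 of the 10 were called, IKZF1, FOXO1, LEF1 and SOX4 higher in REH and IKZF3 lower, where 39.9% of all tested genes were called (26.4% higher and 13.5% lower). Libraries of the lines did not overlap for 8 of the 10 (6 higher and 2 lower in REH), against 59.2% of all tested genes (39.5% higher and 19.6% lower). Without both libraries that stood apart 9 were called, EBF1 (0.21), IKZF1, FOXO1, LEF1 and SOX4 higher and PAX5 (-0.50), IKZF3, BACH2 and PRDM1 lower, where 67% of all tested genes were called (39.6% higher and 27.5% lower). The median of the 10 was 0.44, with 0.26 over all tested genes, and without both libraries that stood apart these medians were 0.17 and 0.08. After median-of-ratios scaling they were 0.18 and 0.05. On that scaling IKZF1 differed by 1.61, FOXO1 by 1.02, LEF1 by 0.64, SOX4 by 0.26 and IKZF3 by -2.96. BACH2 differed by -0.19 with all libraries (adjusted p = 0.813) and by -1.08 without NALM-6 RPMI 1 (adjusted p = 0.0124). PRDM1 differed by -0.48 (adjusted p = 0.0578) and was called without NALM-6 RPMI 1 (-0.64, 0.00865), without REH CSF 3 (-0.48, 0.0159) and in edgeR (-2.69, 0.00065).

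Between the lines in CSF, 2 of the 10 were called, IKZF3 and BACH2, both lower in REH, where 37.9% of all tested genes were called (24.5% higher and 13.4% lower). Libraries of the lines did not overlap for 4 of the 10, all lower in REH, against 61.4% of all tested genes (34.4% higher and 27% lower). Without both libraries that stood apart 7 were called, IKZF1, FOXO1 and PRDM1 higher and PAX5 (-0.91), EBF1 (-0.16), IKZF3 and BACH2 lower, where 69% of all tested genes were called (39.8% higher and 29.2% lower). BACH2 averaged 69.9 ± 28.96 CPM in REH in CSF and 298 ± 18.4 CPM in NALM-6 in CSF, a log2 difference of -2.18 (SE 0.61, adjusted p = 0.0157). Its adjusted p was 0.0699 without REH CSF 3 (log2 -1.77) and 3.3e-10 without both libraries that stood apart (-1.77). PAX5 differed by -1.36 (SE 0.54, adjusted p = 0.0739) and was called without NALM-6 RPMI 1 (-1.36, adjusted p = 0.00235). PRDM1 differed by 0.38 (adjusted p = 0.127), and was called without NALM-6 RPMI 1 (0.38, adjusted p = 0.0476) and without REH CSF 3 (0.59, 0.0107).

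**Figure D5:**
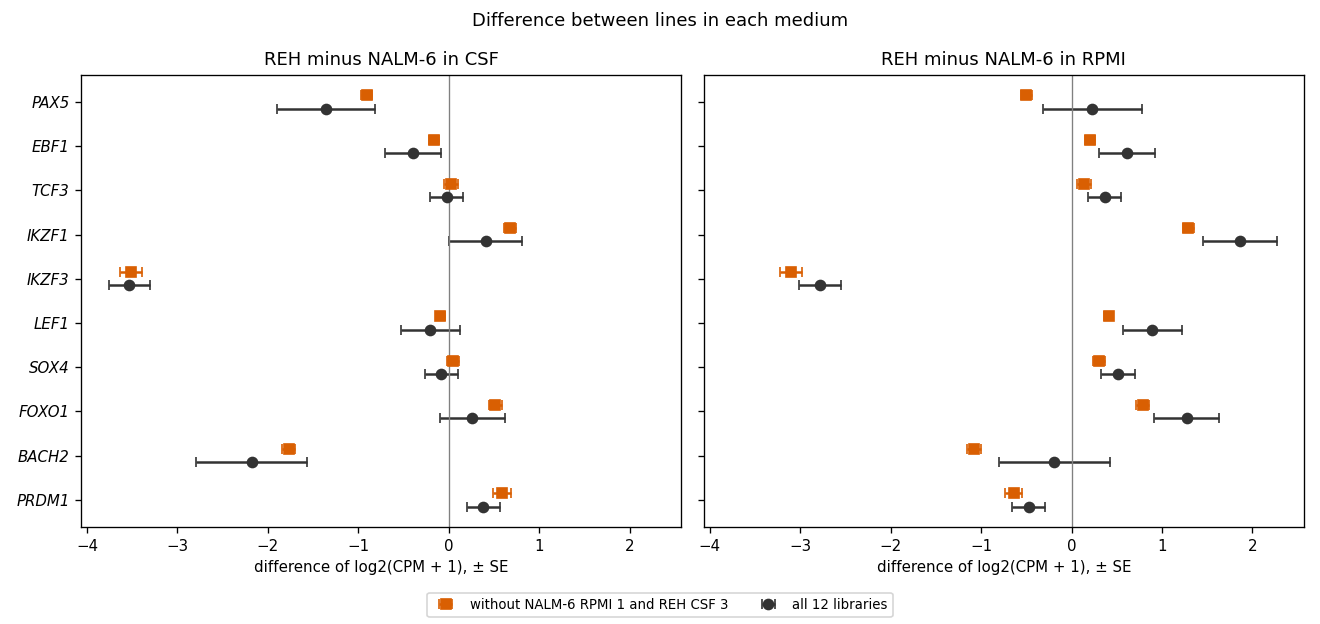
Difference of log2(CPM + 1) between REH and NALM-6 (± SE) for the 10 genes in CSF (left) and in RPMI (right), with all 12 libraries (black circles) and without REH CSF 3 and NALM-6 RPMI 1 (orange squares). IKZF3 lies furthest below 0 in both media, BACH2 is below 0 in CSF in both fits, and IKZF1 is above 0 in RPMI in both.

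Per kb of exonic length, LEF1, TCF3 and PAX5 were the most abundant of the 10 by group mean in every group, and IKZF3 and PRDM1 the least. LEF1 averaged 70.8 CPM per kb in REH in CSF and 130 in REH in RPMI, and 81.2 in NALM-6 in CSF and 77.2 in NALM-6 in RPMI. PAX5 led in NALM-6 in CSF with 91.0 CPM per kb and averaged 38.6 in REH in CSF, behind LEF1 and TCF3. TCF3 averaged 65.8 and 111 CPM per kb in REH in CSF and RPMI, and 66.7 and 88.2 in NALM-6 in CSF and RPMI. LEF1 and TCF3 exchanged places between the libraries of REH in CSF, and PAX5, LEF1 and TCF3 between those of NALM-6 in RPMI, so those neighbours did not differ beyond the spread. EBF1 likewise exchanged places with FOXO1 in REH in CSF and with SOX4 in NALM-6 in RPMI. IKZF3 was the ninth and PRDM1 the tenth in every NALM-6 library. In the REH CSF libraries PRDM1 stood above IKZF3, and in REH in RPMI both rested on 0 to 4 reads per library and were not ordered.

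Of the 10 genes, 6 had group means that spanned at least 1 on the log2(CPM + 1) scale. For these, the protein-coding genes with the most similar course over the 12 libraries were sought among 12027 genes by the root mean square difference of centred log2(CPM + 1). PRDM1 was closest to DRAM1 (0.22) and MTURN (0.26), which averaged 29.5 and 10.2 CPM in REH in CSF against 4.88 and 2.28 CPM in REH in RPMI. IKZF3 was closest to MAP2 (0.13) and NIPAL2 (0.15), and NIPAL2 was listed at 0 in all REH libraries. IKZF1 was closest to ITGA4 (0.08) and BCL2 (0.13), FOXO1 to CAND1 (0.07) and SCAF4 (0.07), PAX5 to JMY (0.13) and MDN1 (0.16), and BACH2 to NPIPB4 (0.24) and DENND4A (0.28). NPIPB4 belongs to a family of near-identical copies, so its counts are uncertain. The low values of the libraries that stood apart are part of these courses.

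Other transcription factors of the B lineage were read from a list of 30, of which 29 were tested. In REH, 6 were higher and 1 lower in CSF, and in NALM-6, 7 were higher and none lower. For this and the lists that follow, the shares of all tested genes are 13.2% higher and 1.71% lower in REH and 10.9% and 1.23% in NALM-6, and without the libraries that stood apart 32.1% and 13.7% in REH and 29.8% and 11% in NALM-6. Between the lines they are 24.5% higher and 13.4% lower in REH in CSF and 26.4% and 13.5% in RPMI, and without those libraries 39.8% and 29.2% in CSF and 39.6% and 27.5% in RPMI. Some lists share genes, such as SPIB, POU2AF1 and CSF1R, which then count in each. POU2F2 (Oct-2), a factor that with its coactivator POU2AF1 drives immunoglobulin genes, averaged 33.1 ± 6.08 CPM in REH in CSF and 5.69 ± 0.315 CPM in REH in RPMI (log2 2.34), and it rose by 1.63 in NALM-6. In these lists a named gene passed the same test as above, with adjusted p-values of 9.8e-08 to 0.0407 in REH and 6.5e-05 to 0.0441 in NALM-6 between media, 4.0e-10 to 0.0247 between lines in CSF and 9.3e-10 to 0.0278 between lines in RPMI. SPIB, an ETS factor, rose by 1.58 in REH and 0.91 in NALM-6, where it was not called by edgeR or DESeq2, in a fit of NALM-6 alone, after median-of-ratios scaling or quantile normalization, or with the length correction (log2 0.40 to 0.91, adjusted p = 0.0610 to 0.294). ID2, an inhibitor of E proteins such as TCF3, averaged 19.5 ± 3.93 CPM in REH in CSF and 6.51 ± 0.266 CPM in REH in RPMI (log2 1.43), and rose by 1.55 in NALM-6. STAT5A rose by 0.73 in REH and POU2AF1 by 1.13 in NALM-6. Without the libraries that stood apart the list had 7 higher and 8 lower in REH and 17 higher and 2 lower in NALM-6.

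Between the lines in RPMI, 11 of these 29 factors were higher and 4 lower in REH, and in CSF 4 were higher and 8 lower (15 and 8, and 10 and 12, without the libraries that stood apart). IRF4, a factor of the pre-B and plasma cell stages, averaged 1.37 ± 0.354 CPM in REH in CSF and 178 ± 3.87 CPM in NALM-6 in CSF (log2 -6.25), with a log2 difference of -5.99 in RPMI. BCL6 was higher in REH by 2.48 in CSF and 3.75 in RPMI, and ETS1 and MEF2C by 2.56 and 2.41 in RPMI, ETS1 not being called in a fit of RPMI alone (adjusted p = 0.0528). AFF3 and the Ikaros family member IKZF2 differed by -3.21 and -2.47 in CSF. IKZF2 lost its call without NALM-6 CSF 2 or 3 or REH CSF 3 (log2 -2.43 to -1.90, adjusted p = 0.0501 to 0.0726).

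Among 20 genes that PAX5 or EBF1 activate in B cells, 18 were tested, with 3 higher and 2 lower in CSF in REH and 5 higher and 1 lower in NALM-6. The lower genes in REH were CD24, a surface glycoprotein of early B cells (log2 -0.99), and IGLL1, a surrogate light chain gene (-0.97), while SPIB and CD72 (0.81) were higher. CD72 lost its call without REH RPMI 2 or 3 (0.80, adjusted p = 0.0523 and 0.0548), and after median-of-ratios scaling or quantile normalization, in edgeR, in DESeq2 and with the length correction (0.65 to 0.80, 0.0583 to 0.147). In NALM-6, NEDD9 (1.43, not called in a fit of NALM-6 alone, adjusted p = 0.0786), POU2AF1, SPIB and CD79A (0.53), a chain of the B-cell receptor, were higher. CD79A lost its call without NALM-6 RPMI 3, REH CSF 2, or any one of the NALM-6 CSF and REH RPMI libraries (0.51 to 0.55, adjusted p = 0.0508 to 0.123), with the replicate block (0.53, 0.128), in edgeR (0.24, 0.329), in DESeq2 and after either other scaling. The list medians were 0.09 in REH and 0.15 in NALM-6, and without the libraries that stood apart 6 were higher and 4 lower in REH and 7 higher and 4 lower in NALM-6.

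Between the lines, 3 of these 18 were higher and 9 lower in REH in each medium (4 and 11 in CSF, and 6 and 10 in RPMI, without the libraries that stood apart). VPREB1 held 4 reads over the REH CSF libraries and 19547 over the NALM-6 CSF libraries (log2 -7.75), with a log2 difference of -8.60 in RPMI. VPREB1 passed the filter only through NALM-6, so a difference between the lines was a condition of its being tested. FCRLA was lower in REH in CSF (-3.44) and in RPMI (-3.62), as was LY86 (-1.59 and -2.04). TNFRSF13C, the BAFF receptor, was lower in CSF (-1.60).

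Of 11 genes that PAX5 holds down in B cells, 7 were tested, and 3 were higher and none lower in CSF in each line. In REH these were CSF1R, the receptor of macrophage colony-stimulating factor (log2 1.58), CCL3 (1.66) and CD33 (0.60), of which CD33 was not called after median-of-ratios scaling (0.56, adjusted p = 0.0607) or quantile normalization, with a pseudocount of 5 or with the length correction. In NALM-6 they were NOTCH1 (1.96), CD44 (0.98) and CD33 (0.88), and the NOTCH1 call depended on each NALM-6 CSF library, being lost without any of them (1.92 to 2.003, adjusted p = 0.0543 to 0.0603), and in a fit of NALM-6 alone (0.124). CD33 in NALM-6 lost its call after quantile normalization, in edgeR, in DESeq2, in a fit of the line alone and with the length correction (0.41 to 0.88, adjusted p = 0.0556 to 0.176), and CD44 with the length correction (0.41, 0.241). CCL3 passed the filter only through REH in CSF and CD44 only through NALM-6 in CSF, so a difference between media was a condition of their being tested. CCL3, CD44 and CD33 stayed below 7 CPM in every group mean, and CCL3 has near-identical copies, so its counts are uncertain. Without the libraries that stood apart 4 were higher in REH and 5 in NALM-6. Between the lines, FLT3 was higher in REH by 3.45 in CSF and 4.62 in RPMI, CSF1R by 3.93 and 2.49, and NOTCH1 by 2.63 in RPMI, while CD33 was lower in CSF (-2.14) and RPMI (-1.86) and GZMA in CSF (-1.58). CSF1R passed the filter only through REH, and CD33 and GZMA only through NALM-6. For these genes a difference between the lines was thus a condition of being tested. CSF1R shares exonic bases with a pseudogene, and its reads may be split between them.

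The list of genes that FOXO1 activates in early B cells held 10, all tested. KLF2 and BTG1, both linked to lymphocyte quiescence, were higher in CSF by 1.52 and 1.56 in REH and by 1.57 and 1.07 in NALM-6, BTG1 not in a fit of NALM-6 alone (adjusted p = 0.0791). KLF2 reached 1 CPM in every CSF library but in only 1 REH RPMI library and no NALM-6 RPMI library. A difference between media was thus a condition of its being tested. Neither RAG1 nor RAG2, the recombinase genes, was called between media in either line. RAG1 averaged 589 ± 274 CPM in REH in CSF and 1291 ± 83.1 CPM in REH in RPMI, and RAG2 267 ± 56.3 and 290 ± 5.26 CPM. In NALM-6, RAG1 averaged 454 ± 31.9 CPM in CSF and 379 ± 286 CPM in RPMI, and RAG2 115 ± 4.13 and 101 ± 58.9 CPM. In all, 2 of the list were higher in CSF in REH and 3 in NALM-6, and none was lower. Without the libraries that stood apart 5 were higher and 2 lower in REH, and 6 higher and 2 lower in NALM-6. Between the lines, 4 of the list were higher and 2 lower in REH in RPMI, and 1 higher and 2 lower in CSF. Without the libraries that stood apart these were 5 and 3 in RPMI, and 4 and 3 in CSF. In RPMI, RAG1 (2.35), RAG2 (1.77) and IL7R (1.67) were higher in REH than in NALM-6, though none of the 3 in a fit of RPMI alone (adjusted p = 0.0568 to 0.119), RAG1 losing its call without any single REH RPMI library (2.32 to 2.40, adjusted p = 0.0631 to 0.0731). CXCR4 and BTG1 averaged 214 ± 6.45 and 47.8 ± 1.90 CPM in REH in RPMI, against 490 ± 32.5 and 105 ± 28.1 CPM in NALM-6 in RPMI. In CSF, CXCR4 was lower in REH (-0.79), as was BTG1 (-0.59), the BTG1 call lost without any single CSF library of either line (-0.60 to -0.57, adjusted p = 0.0513 to 0.0701).

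Of 9 targets of LEF1 and the related TCF factors, 5 were tested. Only TCF7, itself a TCF factor gene, was called between media, higher in CSF by 1.29 in REH and 0.93 in NALM-6, at 2.37 ± 0.538 CPM in REH in CSF and 0.367 ± 0.0192 CPM in REH in RPMI. TCF7 reached 1 CPM in the CSF libraries alone, so a difference between media was a condition of its being tested, and in NALM-6 it lost its call with the length correction (0.36, adjusted p = 0.227). Between the lines, RNF43, a negative regulator of Wnt receptors, had 1252 reads over the REH CSF libraries and 4 over the NALM-6 CSF libraries. It was higher in REH by 4.01 in CSF and 3.69 in RPMI, AXIN2 by 1.19 and 1.79, and ZNRF3 by 1.85 in RPMI, while LGR5 was lower in CSF (-3.87) and RPMI (-2.81). RNF43 passed the filter only through REH, so a difference between the lines was a condition of its being tested. AXIN2 in CSF lost its call without NALM-6 CSF 3 or REH CSF 1 (1.01 and 1.06, adjusted p = 0.0572 and 0.0574).

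The plasma cell programme, which PRDM1 governs, was read from 12 genes, of which 9 were tested. In REH 1 was higher in CSF and none lower. It was SDC1, the plasma cell surface proteoglycan CD138, with 30.0 ± 2.82 CPM in REH in CSF and 2.39 ± 0.439 CPM in REH in RPMI (log2 3.20). In NALM-6 SDC1 averaged 77.2 ± 1.36 CPM in CSF and 33.8 ± 1.22 CPM in RPMI (log2 1.17), ELL2, an elongation factor of secretory immunoglobulin processing, rose by 1.32, JCHAIN by 0.45, and HSP90B1, an endoplasmic reticulum chaperone gene, fell by 0.59. The calls of ELL2, JCHAIN and HSP90B1 were lost without several single libraries and with the replicate block, which pairs the NALM-6 libraries. With the block the adjusted p was 0.0671 for ELL2, 0.0798 for JCHAIN and 0.119 for HSP90B1, at unchanged differences. JCHAIN was also lost in edgeR (0.25, adjusted p = 0.692) and changed sign after quantile normalization (-0.012, 0.939). ELL2 lost its call without NALM-6 CSF 1 or 3 (1.21 and 1.34, adjusted p = 0.0543 and 0.0700). HSP90B1 lost it without REH CSF 1 or 2, or any one of the NALM-6 CSF and REH RPMI libraries (-0.61 to -0.57, 0.0551 to 0.138), and JCHAIN without any of those or NALM-6 RPMI 1 or 3 (0.31 to 0.49, 0.0503 to 0.143).

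The immunoglobulin secretion factor XBP1 was not called between media in either line. The list medians were 0.03 in REH and 0.29 in NALM-6, and -0.08 and -0.20 without the libraries that stood apart. Between the lines, SDC1 was lower in REH in CSF (-1.34) and RPMI (-3.37), as was JCHAIN (-3.06 and -2.58), while ELL2 was higher by 1.65 in CSF and 2.37 in RPMI. JCHAIN passed the filter only through NALM-6, so a difference between the lines was a condition of its being tested.

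Genes that BACH2 holds down numbered 6, of which 5 were tested, PRDM1 among them. In REH all 5 were higher in CSF and in NALM-6 3 were, with list medians of 1.58 in REH and 1.14 in NALM-6, and 5 and 4 were without the libraries that stood apart. PRDM1, a member described above, counts in these numbers but passed the filter only through the CSF libraries. A difference between media was thus a condition of its being tested. CSF1R is also on the list of genes that PAX5 holds down. ITGAM, an integrin of myeloid cells, averaged 52.2 ± 8.88 CPM in REH in CSF and 6.92 ± 0.403 CPM in REH in RPMI (log2 2.73). It differed by 1.14 in NALM-6, with 1.42 ± 0.268 CPM in CSF and 0.0973 ± 0.0557 CPM, near the edge of detection, in RPMI. CEBPB, a myeloid and stress-responsive factor, rose by 1.28 in REH and by 1.15 in NALM-6. CSF1R rose by 1.58 in REH. NQO1, an oxidative stress gene, rose by 0.62 in REH, a call lost without NALM-6 RPMI 2 and without any single library of the other groups (0.49 to 0.69, adjusted p = 0.0501 to 0.138). It was also lost after either other scaling, in edgeR, in DESeq2, with no filter, a pseudocount of 0.25, the block or the length correction (0.45 to 0.66, 0.0539 to 0.369). Between the lines, ITGAM was higher in REH by 4.45 in CSF and 2.85 in RPMI, CSF1R by 3.93 and 2.49, and NQO1 by 1.27 and 0.72. As above, CSF1R passed the filter only through REH. The NQO1 call in RPMI was lost after either other scaling, in edgeR and in DESeq2 (0.18 to 0.49, adjusted p = 0.156 to 0.626). In NALM-6, CEBPB was not called between media after quantile normalization (0.64, 0.0982), nor ITGAM with a pseudocount of 5 (0.33, 0.0648).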

How the data were processed

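RNA was measured in 12 libraries, 3 for each of 4 groups, taken from the labels. Per the labels' protocols, RNA was made into stranded mRNA libraries with dual indices. For the build GRCh38, read checks with FastQC, Trimmomatic 0.33, alignment with HISAT2 2.1.0, featureCounts and edgeR are listed by the submitters' processing notes. Neither the annotation release nor the strand setting is stated there. As deposited by the authors, the values are CPM per gene and library. All values were whole multiples of the worth of 1 read (100% within 1e-06), which gave back whole reads, 23412869 to 37146556 per library. At this depth 3 reads, the limit that a count of 0 allows, correspond to 0.0808 to 0.128 CPM.

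From these values, log2(CPM + 1) was fitted in R 4.3.3 with limma 3.58.1 (variance trend on mean level) in a model of 4 groups over all 12 libraries, for the 14364 genes with 1 CPM or more in no fewer than 3 libraries. P-values were adjusted over all these genes by the Benjamini-Hochberg method. Whole reads were also tested with edgeR 4.0.16 (quasi-likelihood) and DESeq2 1.42.0. The steps were tested on simulated data. Gene positions and lengths came from GENCODE 29, in which 58542 of the 60617 IDs matched, and promoters from RefSeq (GRCh38.p14), in which 9 of the 10 members matched; IKZF3 was not among them. Windows were searched on both strands for the E-box CANNTG, the EBF1 palindrome CCCNNGGG, the FOXO1 motif TGTTTAC, the AP-1 site TGANTCA, the LEF1 motif ATCAAAG and the IKZF1 core GGGAA.

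All 10 members are described; of each gene list, at most 4 called genes per comparison are named, those with the largest differences. Some of these genes are not reported here. Genes similar to a member were sought for members whose group means spanned at least 1 on the log2 scale, 2 per member. Members and lists were chosen with earlier results of these data known. Other settings tried were the pseudocount, the filter, 2 other scalings, robust variance, a replicate block, fits of the compared groups alone and leaving out libraries. A length correction (each library's deviation from a gene's mean, smoothed over log2 exonic length, was subtracted), and edgeR without both libraries that stood apart, were chosen after seeing the data. The libraries that stood apart were themselves picked from these data. The main fit paired no libraries, so its p-values take no account of any pairing. The replicate block paired same-numbered CSF and RPMI libraries in both lines, and between lines it fitted the replicate number over all 4 groups. Deviations of same-numbered CSF and RPMI libraries from their group means correlated at 0.36, 0.19 and 0.17 in NALM-6 and at -0.46, 0.24 and -0.32 in REH. Differently numbered NALM-6 libraries reached similar values, 0.23 for CSF 2 with RPMI 3 and 0.16 for CSF 3 with RPMI 2. CSF 1 with RPMI 2 and 3 gave -0.32 and -0.37, and CSF 2 and 3 with RPMI 1 gave -0.22 and -0.17. The correlations therefore do not settle whether the numbers mark pairs, and the pairing in the block is an assumption. Same-numbered REH and NALM-6 libraries correlated at 0.40, 0.14 and 0.31 in RPMI and at -0.35, 0.029 and -0.17 in CSF. With the block 864 genes were called in NALM-6 and 1742 without it.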

Additional observations from a re-analysis of the deposited data

Results flagged for a closer look

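On the log2(CPM + 1) scale, 6 list genes passed the test of a different response to CSF in the lines, by the interaction term of the limma fit over all 12 libraries. No explanation was tested. SDC1, the CD138 proteoglycan gene, responded more in REH by 2.03 (adjusted p = 0.000151), and it was called in all 26 alternatives. It averaged 30.0 ± 2.82 CPM in REH in CSF and 2.39 ± 0.439 CPM in REH in RPMI, and 77.2 ± 1.36 CPM in NALM-6 in CSF and 33.8 ± 1.22 CPM in NALM-6 in RPMI (SD, n = 3 each).

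POU2AF1, the coactivator of Oct factors, differed by -1.26 (adjusted p = 0.0015) and was called in 24 of 26 alternatives. Its call was lost with the length correction (-0.77, adjusted p = 0.114) and with length correction and block (-0.77, 0.185). It averaged 185 ± 5.78 CPM in REH in CSF and 203 ± 3.08 CPM in REH in RPMI, and 197 ± 5.77 CPM in NALM-6 in CSF and 90.4 ± 11.2 CPM in NALM-6 in RPMI. The NALM-6 RPMI libraries were the low group.

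For 4 genes the difference rested on a line with few reads, where log2(CPM + 1) compresses the change. CCL3, a chemokine gene, differed by 1.51 (adjusted p = 0.00156; 22 of 25 alternatives), with 190 reads in REH in CSF and 4 in REH in RPMI, and 10 and 0 in NALM-6. CSF1R differed by 1.44 (adjusted p = 0.000562; 22 of 26), with 12 reads in NALM-6 in CSF and 3 in NALM-6 in RPMI. Per total reads its ratio of CSF to RPMI was 3.42 in REH (95% exact interval 3.06 to 3.83) and 4.55 in NALM-6 (1.23 to 25.2), and the sign turned in edgeR (-0.14, adjusted p = 0.932) and DESeq2 (-0.25, 0.861). ITGAM differed by 1.60 (adjusted p = 0.000997; 22 of 26), with 124 reads in NALM-6 in CSF and 10 in NALM-6 in RPMI. Its ratio was 7.45 in REH (6.84 to 8.13) and 14.1 in NALM-6 (7.43 to 30.2), and its sign turned in edgeR (-0.69, 0.306) and DESeq2 (-0.74, 0.334), so neither gene is shown to respond more in REH. CD44, the adhesion receptor gene, differed by -0.94 (adjusted p = 0.00377; 18 of 25), with 2 reads in REH in CSF and 0 in REH in RPMI, and 112 in NALM-6 in CSF and 17 in NALM-6 in RPMI; it was 0.029 in edgeR (0.661). None of these 4 was called by edgeR or DESeq2 on whole reads.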

How the results depend on the processing

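Over the members' 1335 alternative values, 1124 kept their direction and their side of the threshold, 100 gained a call and 62 lost one with the same sign, and 49 changed sign, 8 of them also gaining a call. PRDM1 between media in both lines, IKZF3 between the lines in both media, and IKZF1 between the lines in RPMI kept their calls in every alternative that gave a value. The filter at 5 CPM gave no PRDM1 value. Leaving out single libraries gave 1448 to 4695 genes called between media in REH (2144 with all), 865 to 2531 in NALM-6 (1742), 411 to 995 for the difference in response (607), 4574 to 8415 between lines in CSF (5446) and 4605 to 6921 in RPMI (5726). The members called ranged over 1 to 7, 1 to 3, 0 to 2, 2 to 4 and 3 to 6 in the same order.

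Leaving out both libraries that stood apart gave 6586 genes and 7 members in REH, 5865 and 7 in NALM-6, 2198 and 6 for the difference in response, 9904 and 7 between lines in CSF and 9628 and 9 in RPMI. With edgeR these were 6391 and 8, 5793 and 5, 1471 and 6, 9825 and 8, and 9651 and 8. In NALM-6, 1118 genes were called after quantile normalization, 523 in a fit of the line alone, 864 with the replicate block, 3381 with DESeq2 and 778 with length correction and block. The difference in response had 301 genes at a filter of 5 CPM, 305 with the replicate block, 124 with edgeR and 233 with length correction and block.

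Members called in NALM-6 numbered 1 in a fit of the line alone, without a filter, at a filter of 5 CPM, with quantile normalization or with 0.25 as pseudocount. In REH they numbered 1 at 5 CPM or with the block, 4 with median-of-ratios scaling, the line alone, edgeR or DESeq2, 6 with length correction and 5 with length correction and block. For the difference in response there was 1 with quantile normalization, edgeR, DESeq2 or length correction and block, and 2 with length correction. Between lines in RPMI there were 3 with no filter, 5 CPM, the block or robust variance and 2 in a fit of RPMI alone. Between lines in CSF there were 5 with length correction, with or without the block. The replicate block, a check on pairing, ended the calls of TCF3 in REH and of LEF1 and SOX4 between lines in RPMI, and changed no other member's call.

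Signs changed as follows, and the cause was not tested. In NALM-6, PAX5 was -0.19 without both libraries, -0.27 with edgeR so, and -0.0019 with length correction (single libraries -0.19 to 0.93). EBF1 was -0.066 with median-of-ratios scaling, -0.11 with edgeR, -0.12 with DESeq2, -0.20 without both, -0.29 with edgeR so, and -0.19 with length correction (-0.20 to 0.44). LEF1 was -0.057, -0.13, -0.13, -0.27, -0.35 and -0.13 in the same order (-0.27 to 0.46). BACH2 was -0.074 without both and -0.15 with edgeR so (-0.074 to 1.30). In REH, IKZF3 was -0.037 after quantile normalization (-0.0023 to 0.10). The IKZF3 difference in response was 0.12 with edgeR, 0.16 with DESeq2 and 0.47 with edgeR without both. Between lines in RPMI, PAX5 was -0.023 with median-of-ratios scaling, -0.20 with edgeR, -0.21 with DESeq2, -0.50 without both, -0.58 with edgeR so, and -0.30 with length correction (-0.50 to 0.63). TCF3 was -0.011 with length correction and BACH2 ran from -1.08 to 0.29 over single libraries. Between lines in CSF, TCF3 was 0.056 after quantile normalization and 0.022 without both (-0.12 to 0.026), SOX4 0.048 without both (-0.18 to 0.048), and PRDM1 -0.029 after quantile normalization. Depth limits IKZF3 in REH (8 and 5 reads) and PRDM1 in REH in RPMI (8 reads).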

Other observations

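A few markers of other lineages were present in each line, while others of the same lists were at or near 0. MPO, the myeloid peroxidase gene, averaged 106 ± 15.4 CPM in REH in CSF and 65.3 ± 4.21 CPM in REH in RPMI (SD, n = 3 each, as below), and stayed below 1 CPM in NALM-6. GATA3, a T-cell factor gene, averaged 4.80 ± 0.692 CPM in REH in CSF and 2.27 ± 0.0631 CPM in REH in RPMI, and 19.7 ± 0.646 CPM in NALM-6 in CSF and 20.01 ± 1.11 CPM in NALM-6 in RPMI. BCL11B averaged 7.92 ± 0.998 CPM in REH in CSF and 7.94 ± 0.680 CPM in REH in RPMI. The other T-cell markers, CD3E, CD3D, CD7 and CD2, averaged 0.0918 CPM or less in every group. Of the myeloid markers in REH, CEBPA and ELANE had no read, and CD14 and CSF3R averaged 0.16 CPM or less. LYZ averaged 1.52 CPM in REH in CSF and 0.206 CPM in REH in RPMI. MAP2, a neuronal gene and the gene most like IKZF3 in its course, averaged 13.2 ± 1.11 CPM in NALM-6 in CSF and 6.28 ± 2.69 CPM in NALM-6 in RPMI, while TTR, SNAP25 and AQP4 had no read in any library.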
